A study of Mus musculus with 11 samples.

Results

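Cell cycle genes were examined in the main olfactory epithelium (MOE) of mice with and without the olfactory Taar gene cluster. The set comprised 40 genes listed by symbol, of 24421 entries in the table, and all 40 were present and passed the filter on low counts that left 16574 genes for testing. They were read as 16 genes of DNA replication and 24 genes of mitosis, and each is named below by its role.

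The MOE lines the nose and holds the olfactory sensory neurons (OSNs). The 11 RNA-seq libraries came from whole MOE and were 3 wild type with 2 intact copies of the cluster, 4 heterozygous with 1 copy and 4 homozygous with 0 copies of the genes Taar2 to Taar9. The deletion also removes TAAR enhancer 2 and leaves TAAR enhancer 1 in place, the regulatory elements of the Taar genes. Every library carries the strain label C57BL/6 and the age label P1-P2, whereas the reporting summary of the study gives mixed C57BL/6J and 129 backgrounds and an older age, and which applies to these libraries was not settled here. Sex, litter and library date are not in the labels. Nor is it said whether each library came from a separate pup, so p-values measure the spread between libraries, which may be technical.

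The OSNs are renewed throughout life. Globose basal cells near the base of the epithelium divide and give rise to neurons that no longer cycle, and growth around birth adds divisions in other layers of the mucosa. Dividing cells load and fire the replicative helicase and copy their DNA under cyclin E and cyclin A with their kinases, and then assemble a spindle and separate the chromosomes under Cdk1 with cyclin A and cyclin B. Transcripts of replication genes typically peak around the start of DNA synthesis through E2F sites. Those of mitosis genes peak later through the cell cycle genes homology region (CHR), where the DREAM and MuvB complexes bind. In bulk tissue, fewer dividing cells and less RNA per dividing cell cannot be told apart.

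The promoters of both groups were read to show what the groups share in sequence. RefSeq promoters on GRCm38.p6, from 250 bases before to 50 bases after the start, were matched by symbol for 32 of the 40 genes, 13 of replication and 19 of mitosis. Those not matched were Foxm1, Ccne2, Aurkb, Ccna2, Kif20a, Gins2, Mcm4 and Tpx2. Mcm7 and Uhrf1, each with 2 listed promoters, were counted as holding a motif if either did. Both strands were searched for the CHR (TTTGAA or TTCGAA), the E2F motif (TTTCCCGC, TTTCGCGC, TTTGCCGC or TTTGGCGC) and the CCAAT box (CCAAT). Matches of different motifs shared bases in 2 genes, Cdca8 (CHR and CCAAT) and Mcm7 (E2F and CCAAT).

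The promoters of 4 mitosis genes to which the comparisons below return are shown with the CHR letters in capitals. They lie at chr7:135716330-135716629 for Mki67, chr2:127831810-127832109 for Bub1, chr4:118437294-118437593 for Cdc20 and chr2:172370521-172370820 for Aurka, all on the minus strand.
Mki67: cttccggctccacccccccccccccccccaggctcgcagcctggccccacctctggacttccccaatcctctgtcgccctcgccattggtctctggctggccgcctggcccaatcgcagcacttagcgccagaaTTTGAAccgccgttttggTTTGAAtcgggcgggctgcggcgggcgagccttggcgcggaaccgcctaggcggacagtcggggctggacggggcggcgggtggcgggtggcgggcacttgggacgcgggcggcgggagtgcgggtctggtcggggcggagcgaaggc
Bub1: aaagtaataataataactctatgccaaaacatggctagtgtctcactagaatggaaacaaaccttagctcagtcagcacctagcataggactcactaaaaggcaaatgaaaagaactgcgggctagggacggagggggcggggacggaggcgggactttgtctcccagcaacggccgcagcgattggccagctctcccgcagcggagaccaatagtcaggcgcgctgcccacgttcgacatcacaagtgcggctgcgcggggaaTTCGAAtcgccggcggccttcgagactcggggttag
Cdc20: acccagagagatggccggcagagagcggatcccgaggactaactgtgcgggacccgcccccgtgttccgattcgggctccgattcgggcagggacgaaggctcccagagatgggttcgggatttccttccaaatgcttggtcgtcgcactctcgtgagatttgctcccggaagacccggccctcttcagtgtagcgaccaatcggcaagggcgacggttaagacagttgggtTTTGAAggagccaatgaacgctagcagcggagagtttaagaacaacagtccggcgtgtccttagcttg
Aurka: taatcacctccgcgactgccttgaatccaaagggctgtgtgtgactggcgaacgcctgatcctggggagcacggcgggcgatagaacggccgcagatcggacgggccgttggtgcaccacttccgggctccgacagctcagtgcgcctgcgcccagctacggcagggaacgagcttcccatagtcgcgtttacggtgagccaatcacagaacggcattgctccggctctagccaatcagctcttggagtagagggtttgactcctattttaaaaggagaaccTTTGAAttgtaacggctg

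The promoters of Mcm5 (chr8:75109259-75109558, plus strand) and Mcm6 (chr1:128359656-128359955, minus strand), which encode subunits of the replicative helicase, are shown with the E2F letters in capitals. In each of them overlapping matches on opposite strands form the longest run of capitals.
Mcm5: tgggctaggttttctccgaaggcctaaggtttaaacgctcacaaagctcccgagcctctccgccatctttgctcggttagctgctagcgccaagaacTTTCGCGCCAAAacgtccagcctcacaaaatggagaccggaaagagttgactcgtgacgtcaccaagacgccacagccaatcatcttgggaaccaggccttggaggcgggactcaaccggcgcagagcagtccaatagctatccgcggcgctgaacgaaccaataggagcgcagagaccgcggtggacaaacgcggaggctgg
Mcm6: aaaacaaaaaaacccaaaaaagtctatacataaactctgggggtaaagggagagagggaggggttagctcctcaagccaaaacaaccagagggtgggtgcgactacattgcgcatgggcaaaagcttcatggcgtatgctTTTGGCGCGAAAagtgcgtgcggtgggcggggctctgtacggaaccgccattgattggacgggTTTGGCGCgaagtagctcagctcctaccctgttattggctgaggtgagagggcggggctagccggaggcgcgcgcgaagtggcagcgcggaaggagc

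The CHR letters were present in 15 of 19 promoters of mitosis genes (78.9%) and in 3 of 13 of replication genes (23.1%, Cdc45, Mcm2 and Mcm7), against 19.2% of all 32851 promoters. For 14 of the 15 mitosis genes a match lay within 50 bases of the start, and Mki67 was the exception, with both of its matches farther upstream. The E2F letters were present in 6 of 13 promoters of replication genes (46.2%), those of Cdc6, Mcm3, Mcm5, Mcm6, Mcm7 and Uhrf1. They were present in 1 of 19 of mitosis genes (5.26%, Cdk1) and in 2.26% of all promoters. The CCAAT letters, common everywhere at 37.4%, were present in 17 of 19 (89.5%) and 10 of 13 (76.9%). These matches are descriptions of letters in a window and no binding was measured. Ccnb1, Birc5, Cenpe and Nusap1 of the mitosis group held no CHR letters in this window.

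**Figure D1:**
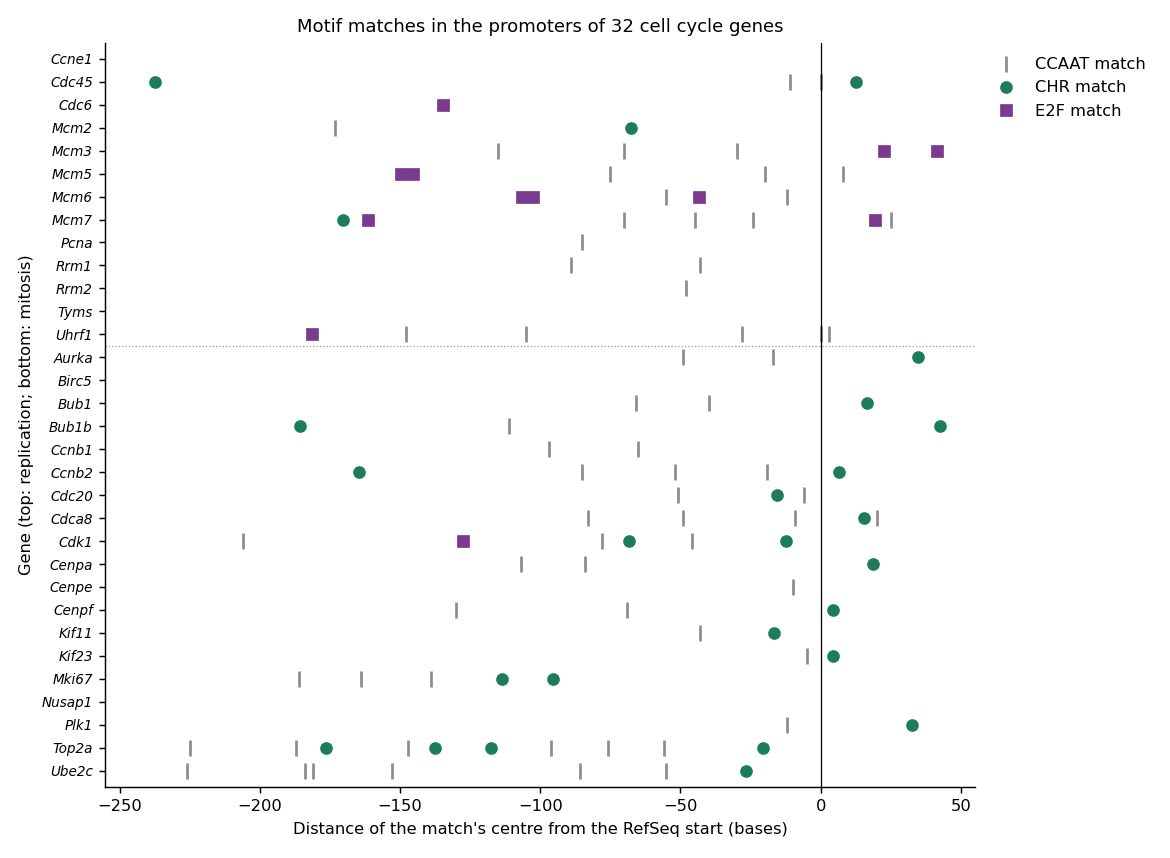
Positions of motif matches in the promoters of 32 cell cycle genes, replication genes above the dotted line and mitosis genes below it. The x axis is the distance in bases of the centre of each match from the RefSeq start, circles are CHR, squares E2F and ticks CCAAT matches, and the 2 listed promoters of Mcm7 and of Uhrf1 are drawn on one line each. CHR circles sit within 50 bases of the start in 14 mitosis genes and 1 replication gene.

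Properties of the libraries that could touch the results are given first. Total counts were 9239866 to 14632525, with 19093 to 19828 genes detected. The 14 Taar genes of the cluster summed to 87 to 119 counts in wild type, 31 to 96 in heterozygous and 1 to 3 in homozygous libraries, in the order of the labels. On the first principal component (41.6% of the variance, computed without the 40 genes) the libraries fell into a set of 6 (wild type replicates 1 and 2, heterozygous 3 and 4, homozygous 1 and 2) and a set of 5 (wild type 3, heterozygous 1 and 2, homozygous 3 and 4), here set 1 and set 2. In homozygous replicate 2, 25.8% of counts fell on the ribosomal RNA entry Rn45s, against 0.0848% to 0.786% elsewhere. Skeletal muscle markers summed to over 100 CPM (the count of a gene scaled by TMM to a common library size) in 5 libraries, 2 heterozygous and 3 homozygous, and in 0 wild type libraries.

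All 40 genes were expressed in all 11 libraries. Counts per gene and library were 30 to 2896, and the 40 genes together took 0.123% to 0.213% of a library. Per kilobase of the longest coding transcript, Pcna, the sliding clamp that holds DNA polymerase on its template, was the highest of the replication genes (24.8 CPM per kb, mean of the 3 genotype means). Cdc6, which loads the helicase onto replication origins, was the lowest (1.601 CPM per kb). Among the mitosis genes Top2a, the topoisomerase that untangles sister DNA, was the highest (24.7 CPM per kb) and Ccnb1, cyclin B1, the lowest (3.80 CPM per kb). The median was 14.4 CPM per kb over replication genes and 11.3 over mitosis genes, against 9.06 over all tested genes with a length.

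**Figure D2:**
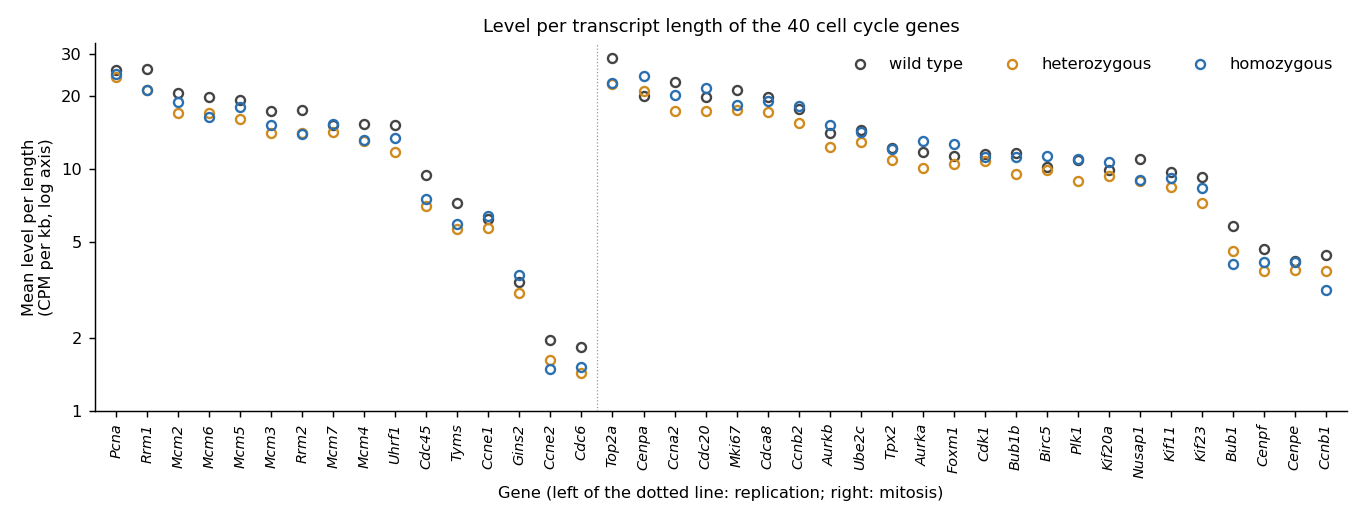
Mean level per length of the 40 cell cycle genes in each genotype. The y axis is CPM per kilobase of transcript on a log axis, each circle is the mean of 3 wild type, 4 heterozygous or 4 homozygous libraries, and genes are ordered by their mean within replication (left) and mitosis (right). Averaged over the 3 genotypes, levels run from 1.601 (Cdc6) to 24.8 (Pcna) CPM per kb. Single circles run from 1.43 (Cdc6, heterozygous) to 28.7 (Top2a, wild type) CPM per kb.

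Cyclin B2 stood well above cyclin B1 in this tissue, with a mean of 27.1 against 11.03 CPM in wild type. The count of Ccnb1 is uncertain, because 41.9% of its 51-base stretches also occur in other genes, most in the pseudogene Ccnb1-ps, and how reads with several positions were counted is not given in the sources used here. Of the 40 genes 12 had over 10% of such stretches in another gene, and the same doubt holds for Mcm7 (33.6%, most with Gm5487) and Pcna (31.5%, most with Pcna-ps2). For 5 of the 12 the other gene lies over them on the opposite strand. Gins2 overlaps Gse1 on the other strand (67.3% of its exon bases), Kif20a overlaps Cdc23 (29.3%), Ube2c overlaps the muscle gene Tnnc2 (22.8%), Ccne2 overlaps Ints8 (17.4%) and Ccna2 overlaps Exosc9 (12.5%). The kit keeps the strand, but the strand setting of the counting is not given in the sources used here.

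The summed level of the 40 genes was 1857 ± 227 CPM (SD, n = 3) in wild type, 1573 ± 155 (n = 4) in heterozygous and 1701 ± 83.3 (n = 4) in homozygous libraries, that is 84.7% and 91.6% of wild type. For the replication genes the sums were 694, 812 and 574 CPM in wild type replicates 1 to 3, 461, 587, 642 and 634 in the 4 heterozygous ones, and 611, 588, 642 and 599.7 in the 4 homozygous ones, here and below in the order of the replicate numbers. For the mitosis genes they were 1157, 1274 and 1058 CPM in wild type, 922, 1111, 1059 and 876 in heterozygous, and 1147, 1044, 1145 and 1027 in homozygous libraries. The ranges of the 3 genotypes overlapped in both sums. Wild type replicate 2 was the highest library in each, heterozygous replicate 1 the lowest for replication and heterozygous replicate 4 the lowest for mitosis. The balance of the groups, the mitosis sum over the replication sum, was 1.69 ± 0.139 in wild type, 1.73 ± 0.276 in heterozygous and 1.79 ± 0.0679 in homozygous libraries, and also overlapped.

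**Figure D3:**
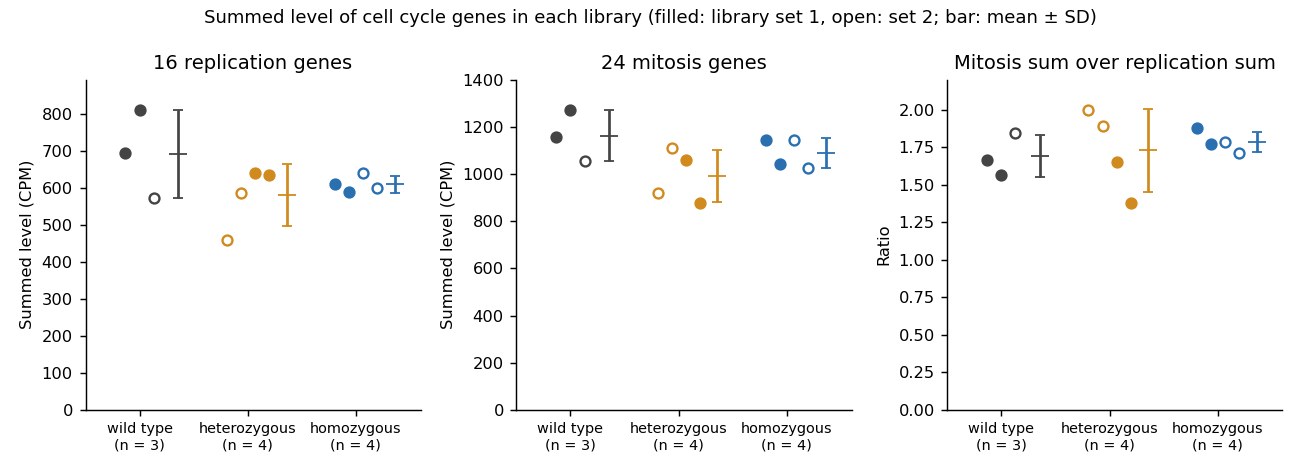
Summed level of the replication genes, summed level of the mitosis genes (both in CPM) and the ratio of the sums, by genotype. Each circle is a library, filled in set 1 and open in set 2, and bars are the mean ± SD of 3 wild type, 4 heterozygous and 4 homozygous libraries. The genotypes overlap in every panel, and wild type spreads from 574 to 812 CPM in the replication panel.

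Within each library set the order was partly different. In set 1 the 40 genes summed to 1969 CPM in wild type, 1605 in heterozygous (81.5% of wild type) and 1695 in homozygous libraries (86.1%). In set 2, which holds 1 wild type library, they summed to 1632, 1541 (94.4%) and 1707 CPM (104.6%). The homozygous mean was thus under wild type in set 1 and over it in set 2.

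To ask whether loss of 1 copy of the cluster went with a change in cell cycle transcripts, heterozygous and wild type libraries were compared. No gene passed an adjusted p of 0.05 in edgeR's quasi-likelihood test, for the 40 genes or for any tested gene (0%), and DESeq2 also called 0 of the 40. Before adjustment, 2 of the 40 were lower at p under 0.05 (5%, Ccna2 and Mki67), against 0.495% of all tested genes, and 0 were higher, against 1.75%. DESeq2 had the same 2 genes at p under 0.05 (2.28% of its 21582 genes). The estimates themselves leaned one way, with 39 of the 40 log2 fold changes below 0 (97.5%) against 49.6% of all tested genes. Their median was -0.27 over replication genes, all 16 of them below 0, and -0.20 over mitosis genes, 23 of 24 below 0. The replication median was -0.12 without wild type replicate 2 and -0.15 without heterozygous replicate 1, and the mitosis median was -0.32 without wild type replicate 3. The median over all tested genes was 0.0018. The 40 genes are not independent of each other, since a library with fewer dividing cells is lower in many of them together, so these counts carry no test.

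Mki67, which encodes the proliferation antigen Ki-67 that coats mitotic chromosomes (mm10, chr7:135689784-135716361), was the most abundant of the 40 genes in CPM. Its level was 194, 232 and 212 CPM in wild type replicates 1 to 3, 183, 188, 168 and 169.8 in heterozygous, and 181, 174, 200.3 and 184 in homozygous libraries. The highest heterozygous library was thus below the lowest wild type one, as for 1.1% of all tested genes, and no other member separated them, in either direction (1.41% of all tested genes lay higher without overlap). The log2 fold change was -0.26 (SE 0.12, edgeR p = 0.0445, adjusted p near 1) and the two-sided exact permutation test gave p = 0.0571, the smallest that 3 against 4 libraries allow. The unadjusted p was over 0.05 in 15 of 20 alternatives. Among them were both fits of the replicate block, these genotypes alone and no filter. Others were leaving out wild type replicate 2 or 3, heterozygous replicate 1, 3 or 4, or any one of the homozygous libraries. The log2 fold change was -0.33 to -0.20 over the 20. Mki67 also had the smallest spread of the 40 genes, with an SD of 0.097 on the log2 scale within genotypes, at the 1.6th percentile of all tested genes.

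Ccna2, cyclin A2, which acts in both DNA synthesis and entry into mitosis (chr3:36564865-36572150), had the lowest p of the 40 genes in this comparison. Its level was 67.0, 77.0 and 59.0 CPM in wild type, 44.7, 60.9, 53.2 and 48.2 in heterozygous, and 61.7, 58.2, 64.8 and 55.1 in homozygous libraries. Heterozygous replicate 2 lay above wild type replicate 3, so the groups overlapped. The log2 fold change was -0.39 (SE 0.14, 95% interval -0.70 to -0.08), with p = 0.0183 by edgeR and p = 0.114 by the two-sided exact permutation test. The unadjusted p was over 0.05 in 6 of 20 alternatives. Among them were both fits of the replicate block and leaving out wild type replicate 2, heterozygous replicate 1 or heterozygous replicate 4. The log2 fold change was -0.48 to -0.28 over the 20. Kif23, a motor of the central spindle that cells need to divide their cytoplasm, came next at -0.36 (SE 0.19, edgeR p = 0.0904, exact permutation p = 0.229) and overlapped too. It was -0.23 without heterozygous replicate 4 and -0.52 without heterozygous replicate 3, the fit in which its unadjusted p was under 0.05. Its level was 35.95, 29.4 and 29.3 CPM in wild type, 21.6, 26.1, 32.8 and 18.0 in heterozygous, and 31.6, 28.7, 27.9 and 25.9 in homozygous libraries.

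The number of genes at p under 0.05 rested on single libraries. It was 9 without wild type replicate 3 (Aurka, Bub1b, Ccna2, Cdc45, Mcm2, Mcm3, Mcm6, Plk1 and Ube2c), in a fit where 3.66% of all tested genes were at p under 0.05 in either direction. It was 0 without wild type replicate 2 (2.18% of all tested genes) and 0 without heterozygous replicate 1 (1.73%). It was 1 (Ccna2, with Mki67 lost) without any one of the 4 homozygous libraries (2.05% to 2.41%), which are not part of the contrast but share the fit. In each of these fits 36 to 40 of the 40 log2 fold changes were below 0.

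By role, the heterozygous estimates of all 16 replication genes were below 0, against 49.6% of all tested genes. At p under 0.05 were 0 of the 16, against 0.495% of all tested genes lower and 1.75% higher. Cdc6, Cdc45 and Gins2, which load the helicase and build it into an active fork, had log2 fold changes of -0.43 (Cdc45, SE 0.25) to -0.16 (Gins2, SE 0.22). The 6 subunits of the MCM helicase, which unwinds DNA, had -0.29 (Mcm3) to -0.09 (Mcm7). Their sum was 374 ± 71.5 CPM in wild type, 318 ± 43.9 in heterozygous and 336 ± 9.23 in homozygous libraries, so wild type libraries were the most spread. The genes of nucleotide supply, Rrm1 and Rrm2 of ribonucleotide reductase and Tyms, thymidylate synthase, lay at -0.36 to -0.28. Uhrf1, which carries DNA methylation over to the new strand, was at -0.37 (SE 0.21) beside -0.09 for Pcna, and the cyclins Ccne1 and Ccne2 were at -0.14 and -0.28.

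Among the mitosis genes, the cyclins Ccna2, Ccnb1 and Ccnb2, their kinase Cdk1 and Foxm1, a transcription factor for mitosis genes, summed to 209 ± 12.7 CPM in wild type, 181 ± 24.001 in heterozygous and 204 ± 23.3 in homozygous libraries. The centromere and checkpoint genes Bub1, Bub1b, Cenpa, Cenpe and Cenpf were the tightest sum in wild type (177 ± 2.54 CPM), against 154 ± 30.1 in heterozygous and 169 ± 18.9 in homozygous libraries. In this group Cenpa, the histone variant that marks centromeres, was the only one of all 40 genes with a heterozygous value above 0 (0.08, SE 0.31), whereas Bub1b and Cenpf lay at -0.29 and -0.30. The 7 spindle genes (the kinases Aurka and Plk1, the motors Kif11, Kif20a and Kif23, and the microtubule proteins Nusap1 and Tpx2) lay at -0.36 (Kif23) to -0.08 (Kif20a). Cdc20 and Ube2c, of the ubiquitin ligase that ends mitosis, lay at -0.18 and -0.16, and the chromosomal passenger genes Aurkb, Birc5 and Cdca8 at -0.21 to -0.04.

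Values of single replication genes overlapped between the genotypes. Mcm2 was at 73.8, 84.9 and 49.9 CPM in wild type, 42.2, 52.6, 72.9 and 63.1 in heterozygous and 64.7, 60.9, 66.5 and 63.9 in homozygous libraries. Pcna was at 40.3, 41.9 and 34.5 CPM, then 30.5, 32.5, 39.3 and 43.5, then 33.5, 36.4, 41.5 and 38.6. Both showed wild type replicate 3 under the other two wild type libraries and heterozygous replicates 1 and 2 under 3 and 4. Ccne1, cyclin E1, which with Cdk2 starts DNA synthesis, was at 11.5, 13.1 and 12.9 CPM in wild type, 9.11, 12.6, 10.2 and 13.6 in heterozygous, and 9.59, 11.5, 14.4 and 15.7 in homozygous libraries. Homozygous replicates 3 and 4 were its highest libraries.

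**Figure D4:**
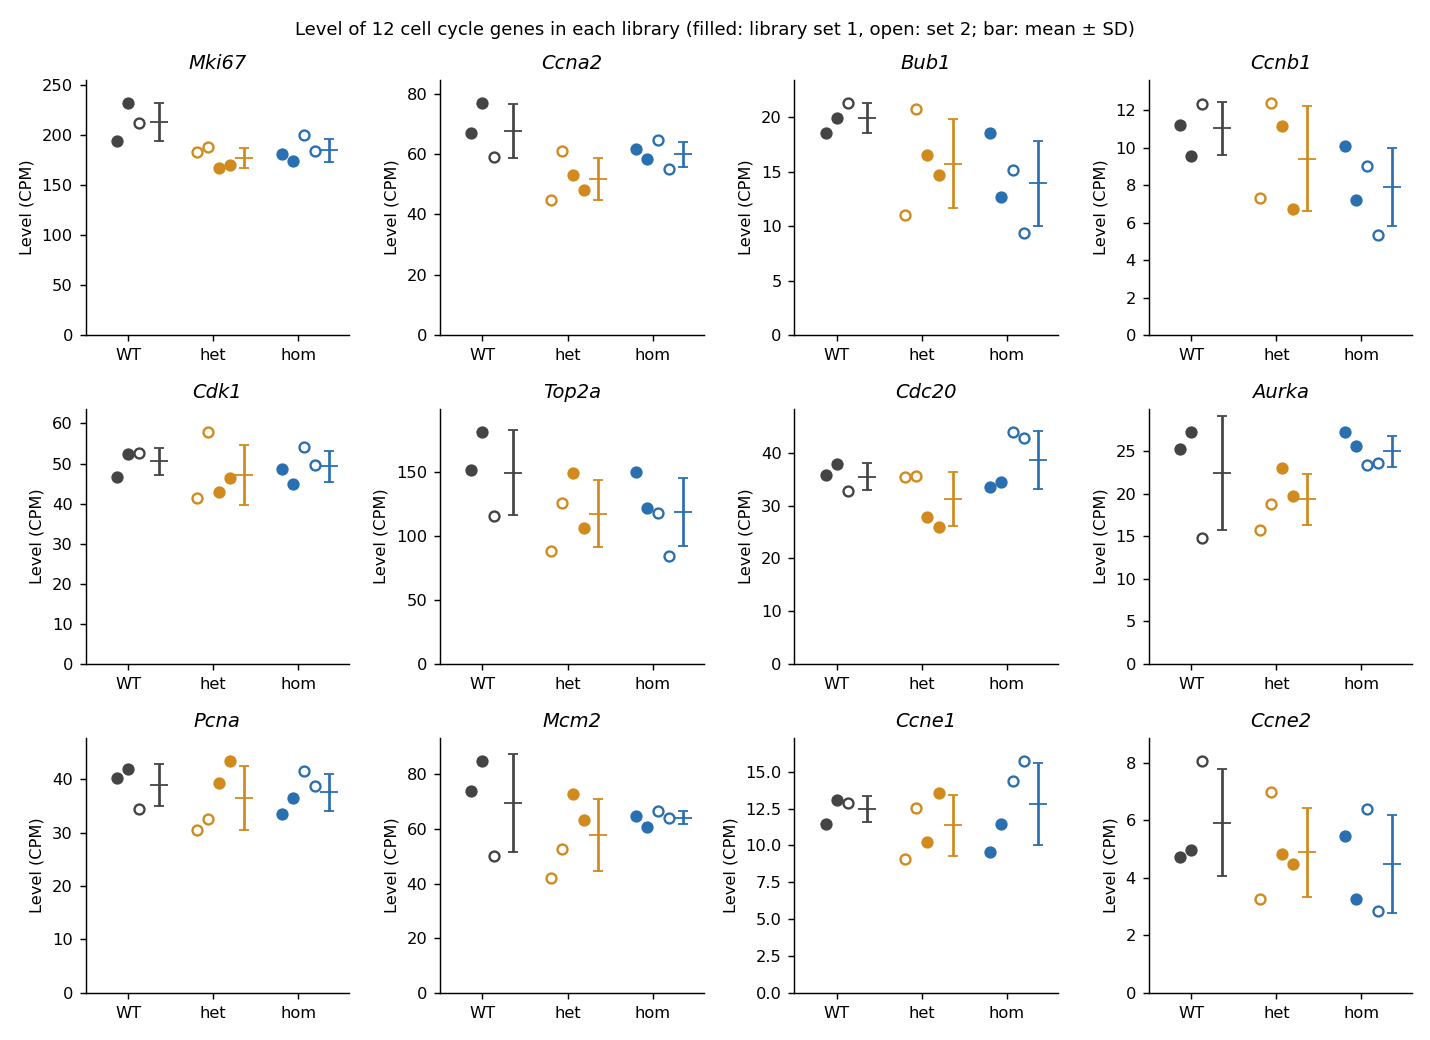
Level in CPM of 12 cell cycle genes in each library, by genotype (WT, wild type; het, heterozygous; hom, homozygous). Circles are libraries, filled in set 1 and open in set 2, and bars are the mean ± SD of 3, 4 and 4 libraries. Mki67 is the gene whose 4 heterozygous circles (168 to 188 CPM) all lie below its 3 wild type circles (194 to 232 CPM), and in Aurka the 4 homozygous circles (23.4 to 27.3 CPM) all lie above the heterozygous ones (15.8 to 23.0 CPM).

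Homozygous libraries were compared with wild type to ask the same of the loss of both copies. The 2 comparisons share the 3 wild type libraries, so likeness between them is not independent evidence. No gene passed an adjusted p of 0.05 in edgeR (0%), and DESeq2 also called 0 of the 40. The lowest adjusted p of any tested gene by edgeR was 0.173, for Taar6, a gene of the deleted cluster. The adjusted test thus did not call a gene that these mice lack, so 0 calls do not show that levels are unchanged. Before adjustment 0 of the 40 were at p under 0.05, against 1.81% of all tested genes higher and 1.21% lower. DESeq2 had 1 gene, Mki67, at p under 0.05 (2.93% of its 21582 genes). No gene separated the groups without overlap, against 2.51% of all tested genes higher and 2.48% lower. Of the 40 log2 fold changes 28 (70%) were below 0, against 47.2% of all tested genes.

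The medians of the replication and mitosis genes lay apart in this comparison, a difference that was not tested. The median was -0.20 over the replication genes, 13 of 16 below 0, and -0.03 over the mitosis genes, 15 of 24 below 0, against 0.015 over all tested genes. The replication median was -0.08 without wild type replicate 2 and -0.32 without wild type replicate 3. The mitosis median rested on single libraries, since it was 0.06 without wild type replicate 2 and -0.20 without wild type replicate 3. The number of genes at p under 0.05 was 3 without wild type replicate 3 (Cdc45, Mcm3 and Mcm6), where 4.25% of all tested genes were at p under 0.05 in either direction. It was 1 (Bub1) without homozygous replicate 1 (4.36% of all tested genes) or heterozygous replicate 1 (3.67%). It stayed 0 without homozygous replicate 2, the library with the Rn45s excess (1.92%). It was 1 (Uhrf1) in a fit of these genotypes alone with the replicate number as a block, in which 1020 of all 16163 tested genes (6.31%) were at p under 0.05.

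Bub1, a kinase of the spindle checkpoint that holds cells until their chromosomes are attached (chr2:127801122-127831865), had the lowest p of the 40 genes. Its level was 18.5, 19.96 and 21.3 CPM in wild type, 11.01, 20.8, 16.5 and 14.7 in heterozygous, and 18.6, 12.7, 15.1 and 9.38 in homozygous libraries. Homozygous replicate 1 lay just above wild type replicate 1, so the groups overlapped. The log2 fold change was -0.52 (SE 0.25, 95% interval -1.06 to 0.03), with p = 0.0624 by edgeR and p = 0.114 by the exact permutation test.

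Ccnb1, cyclin B1, the partner of Cdk1 at entry into mitosis (chr13:100778650-100786570), had the next lowest p. It was at 11.2, 9.54 and 12.4 CPM in wild type, 7.34, 12.4, 11.2 and 6.74 in heterozygous, and 10.1, 7.20, 9.02 and 5.34 in homozygous libraries. Its log2 fold change was -0.48 (SE 0.27, edgeR p = 0.105) and that of Mki67 was -0.20 (SE 0.12, edgeR p = 0.109), and the exact permutation p was 0.114 for each. With the muscle level as a covariate they were -0.53 and -0.24. In libraries low in muscle markers, which hold 1 homozygous library, they were -1.06 and -0.23. Cdk1, the kinase itself, had a homozygous log2 fold change of -0.04 (95% interval -0.35 to 0.27). Its mean was 50.6 ± 3.42 CPM for wild type, 47.2 ± 7.44 for heterozygous and 49.3 ± 3.86 for homozygous libraries. The single values of Cdk1 were 46.6, 52.4 and 52.6 CPM in wild type, 41.5, 57.9, 42.9 and 46.3 in heterozygous, and 48.5, 44.8, 54.2 and 49.6 in homozygous libraries.

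Top2a was at 152, 182 and 116 CPM in wild type, 88.3, 126, 149.5 and 106 in heterozygous, and 150.0, 122, 118 and 84.9 in homozygous libraries. Its homozygous log2 fold change of -0.34 (SE 0.23, exact permutation p = 0.343) was near the heterozygous one of -0.35 (SE 0.23, exact permutation p = 0.229), and every group ranged widely. In the nucleotide supply genes the 3 homozygous values lay at -0.33 to -0.29, close together, whereas the chromosomal passenger genes Aurkb, Birc5 and Cdca8, which correct faulty attachments and guide cell division, lay at -0.06 to 0.16. The MCM genes lay at -0.28 (Mcm6) to 0.02 (Mcm7). Besides Cenpa (0.27), Birc5 and Foxm1 (both 0.16) had the highest estimates, and these are genes that separated the library sets described below.

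**Figure D5:**
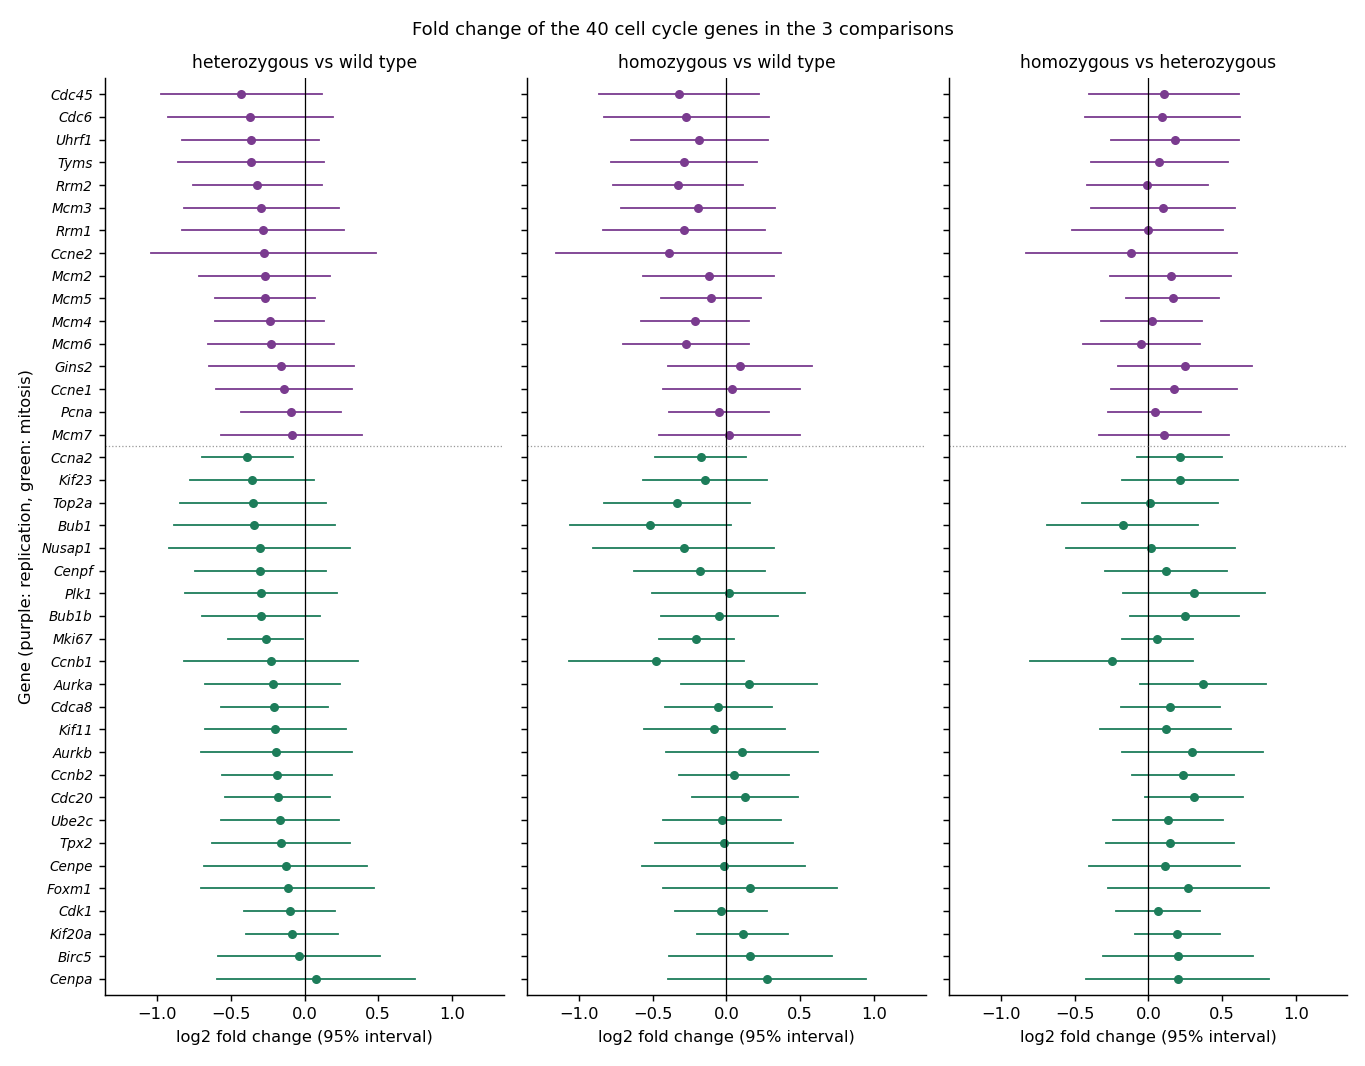
Log2 fold change of each of the 40 cell cycle genes in 3 comparisons, from the edgeR fit of all 11 libraries. Points are estimates, lines are 95% intervals, purple genes belong to replication and green genes to mitosis, ordered by the heterozygous estimate, and the first and second panels share the wild type libraries. In the heterozygous panel 39 of 40 points lie below 0 while only the lines of Ccna2 and Mki67 stay below 0.

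Homozygous and heterozygous libraries were then set against each other. No gene passed an adjusted p of 0.05 in edgeR (0%), and DESeq2 also called 0 of the 40. Before adjustment 0 of the 40 were at p under 0.05, against 0.32% of all tested genes higher and 0.241% lower, and DESeq2 gave 0 as well. Of the 40 log2 fold changes 34 were above 0 and 6 below (15%, against 48.2% of all tested genes below). The median was 0.17 over the mitosis genes, 22 of 24 above 0, and 0.10 over the replication genes, 12 of 16 above 0, against 0.0062 over all tested genes. Without heterozygous replicate 1 the replication median was -0.03, and without heterozygous replicate 4 the mitosis median was 0.07.

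In this comparison 2 of the 40 genes (5%) were higher in every homozygous library than in every heterozygous one, against 0.296% of all tested genes, and 0 were lower without overlap, against 0.302%. They were Aurka and Plk1, kinases that mature the spindle poles and drive entry into mitosis. Aurka was at 25.3, 27.3 and 14.8 CPM in wild type, 15.8, 18.8, 23.0 and 19.7 in heterozygous, and 27.3, 25.6, 23.4 and 23.6 in homozygous libraries. Plk1 was at 27.6, 31.5 and 13.1 CPM, then 18.6, 19.5, 20.2 and 20.2, then 25.3, 23.99, 23.7 and 24.2. For both genes wild type spanned the values of the other genotypes, since replicate 3 was its lowest library by far.

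The log2 fold change of Aurka was 0.37 (SE 0.20, edgeR p = 0.0836) and that of Plk1 0.31 (SE 0.22, p = 0.187), and the two-sided exact permutation test gave p = 0.0286 for each, the smallest that 4 against 4 libraries allow. Cdc20, which activates the ubiquitin ligase that starts anaphase, had the lowest edgeR p. It was at 35.8, 37.8 and 32.8 CPM in wild type, 35.4, 35.6, 27.9 and 25.9 in heterozygous, and 33.6, 34.4, 43.9 and 42.8 in homozygous libraries, with a log2 fold change of 0.31 (SE 0.15, edgeR p = 0.0655, exact permutation p = 0.171). In Cdc20 the 2 library sets stood apart within each deletion genotype. The number of genes at p under 0.05 was 2 without wild type replicate 3 (Aurka and Plk1), where 0.721% of all tested genes were at p under 0.05 in either direction. It was 1 without heterozygous replicate 1, heterozygous replicate 2 or homozygous replicate 1 (Cdc20 in each, with 1.09%, 0.443% and 1.07% of all tested genes), and 1 without heterozygous replicate 3 (Kif23, with 0.805%).

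Ordered by their means, 33 of the 40 genes were lowest in heterozygous libraries and 28 were highest in wild type. The order wild type, homozygous, heterozygous held for 22 genes, homozygous, wild type, heterozygous for 11, wild type, heterozygous, homozygous for 6, and homozygous, heterozygous, wild type for 1, Cenpa. Level did not follow the number of intact copies in most genes, and for no neighbouring genotypes in these orders did a gene pass the adjusted test. Single libraries set the extremes, since wild type replicate 2 was the highest library for 18 genes and heterozygous replicate 1 the lowest for 16, of which 12 were replication genes. Heterozygous replicate 4 was the lowest library for 8 genes, all of mitosis.

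Among the 40 genes the spread between libraries of 1 genotype had a median SD of 0.29 on the log2 scale, against 0.30 over all tested genes. The widest in the mitosis group was Cenpa (0.45), at 22.4, 23.4 and 42.4 CPM in wild type, 37.6, 41.4, 26.7 and 18.1 in heterozygous, and 30.5, 27.6, 42.8 and 41.2 in homozygous libraries. The widest in the replication group was Ccne2, cyclin E2 (0.44), at 4.73, 4.97 and 8.07 CPM, then 3.26, 6.98, 4.83 and 4.50, then 5.47, 3.27, 6.38 and 2.84. Cdc6, the lowest in level per length, was at 9.27, 9.14 and 7.10 CPM, then 3.74, 6.67, 8.15 and 7.92, then 7.66, 6.54, 6.46 and 7.49. In Cenpa the libraries divided by library set rather than by genotype, with every set 2 library at 37.6 CPM or more and every set 1 library at 30.5 or less.

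The sets were drawn from these same libraries, so the differences between them are descriptions. Cenpa (0.74 on the log2 scale, set 2 minus set 1), Foxm1 (0.59), Birc5 (0.58) and Mcm7 (0.49) were higher in set 2 without overlap, 4 of 40, against 16% of all tested genes. Birc5 encodes survivin of the chromosomal passenger complex. Rrm1 (-0.57), Tpx2 (-0.49), Mcm6 (-0.43) and Mcm4 (-0.34) were lower without overlap, again 4 of 40, against 10.9% of all tested genes. The difference had the same sign within all 3 genotypes for 25 of the 40 genes. Together 20% of the 40 genes lay apart between the sets without overlap, against 26.9% of all tested genes, so the 40 genes did not stand out. Of the MCM genes, Mcm7 was among the higher and Mcm4 and Mcm6 among the lower. Across the 40 genes this difference had a Pearson r of 0.17 with the GC content of the transcript (0.20 across 15975 tested genes), and genes are not independent replicates.

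Further genes of the pathway gave counts of the same kind. Of 40 further replication genes, all tested, 0 passed the adjusted test in any comparison. Before adjustment 3 of the 40 were lower in homozygous than wild type libraries, against 1.21% of all tested genes, and 2 were lower in heterozygous libraries, against 0.495%. In homozygous libraries the lowest p belonged to Rfc4, a subunit of the clamp loader (log2 fold change -0.59, 95% interval -1.04 to -0.14), and Pola1, the catalytic subunit of the polymerase that makes primers (-0.64, -1.17 to -0.12). In heterozygous libraries it belonged to Pole2, a subunit of the leading strand polymerase (-0.50, -0.90 to -0.11), and Atad2 (-0.40, -0.78 to -0.02). Rfc4 was at 9.45, 9.86 and 13.2 CPM in wild type but at 7.74, 7.20, 8.14 and 5.77 in homozygous libraries, with no overlap. Of the 40 genes 5 (12.5%) lay lower without overlap in homozygous libraries, against 2.48% of all tested genes. In homozygous against heterozygous libraries Rfc4 (-0.41, -0.83 to 0.02) and Rpa2 (0.18, -0.11 to 0.46) had the lowest p.

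Of 50 further mitosis genes, all tested, 0 passed the adjusted test, and 1, the checkpoint kinase Ttk (-0.54, 95% interval -1.04 to -0.04), was lower before adjustment in heterozygous libraries, against 0.495% of all tested genes, with Kif4 next (-0.36, -0.73 to 0.02). None was at p under 0.05 in homozygous against wild type libraries, against 1.81% of all tested genes higher and 1.21% lower. Pbk (-0.55, -1.14 to 0.04) and Nuf2 (-0.52, -1.12 to 0.08) had the lowest p there. The same held against heterozygous libraries (0.32% higher and 0.241% lower), where Cdca5 (0.32, -0.06 to 0.70) and Cdca3 (0.30, -0.09 to 0.70) had it. Lower than wild type without overlap were 3 of the 50 (6%) in homozygous libraries, against 2.48% of all tested genes. In heterozygous libraries they were also 3 (6%), against 1.1%, and 0 were higher without overlap in either, against 2.51% and 1.41%. In heterozygous against wild type libraries 45 of the 50 mitosis genes and 36 of the 40 replication genes had log2 fold changes below 0, against 49.6% of all tested genes, with medians of -0.20 and -0.16. In homozygous against wild type libraries 32 and 30 were below 0, against 47.2% of all tested genes, with medians of -0.09 and -0.07.

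Of 18 inhibitors of cyclin-dependent kinases and repressors of the cell cycle, 17 were tested and 0 passed. Before adjustment 1 was lower in homozygous than wild type libraries, against 1.21% of all tested genes, and 1 was higher, against 1.81%. Rbl1, the pocket protein p107 of the DREAM complex, itself a gene with E2F control, was the lower one (-0.41, 95% interval -0.80 to -0.02), with an estimate of -0.32 (-0.71 to 0.07) in heterozygous ones. Btg2, an antiproliferative gene induced by stress and differentiation, was the higher one (1.39, 0.03 to 2.75). Its values were 59.9, 55.6 and 34.2 CPM in wild type against 113, 327, 42.3 and 40.7 in homozygous libraries, so the high values were those of replicates 1 and 2, and replicate 2 is the library with the Rn45s excess. The part of that excess in the result was not tested. The other lowest p belonged to Cdkn2d in heterozygous libraries (0.31, -0.07 to 0.69), and to Btg2 (1.18, -0.04 to 2.41) and Cdkn2c (0.29, -0.14 to 0.72) in homozygous against heterozygous ones.

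The 8 cyclins, kinases and regulators of G1, which act before commitment to division, had 0 genes at p under 0.05 in any comparison, against 0.241% to 1.81% of all tested genes in each direction. Their medians were 0.08 in homozygous and -0.03 in heterozygous libraries against wild type. Ccnd1, cyclin D1, was at 358, 343 and 191 CPM in wild type, 165, 198, 295 and 295 in heterozygous, and 269, 294, 226 and 205 in homozygous libraries. In every genotype its set 2 libraries were the lower ones. Mycn had the lowest p against wild type in both deletion genotypes (0.33, -0.11 to 0.77 in homozygous, and 0.27, -0.17 to 0.71 in heterozygous libraries), and Cdk6 (0.34, -0.31 to 0.98) and Cdk4 (0.09, -0.14 to 0.32) in homozygous against heterozygous libraries.

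Marker genes of the cell types in the mucosa were summed beside the 40 genes, and the parts of these cell types in the results were not tested. Globose basal cell and neuronal precursor markers (6 genes) summed to 321 to 377 CPM in wild type, 286 to 398 in heterozygous and 338 to 411 in homozygous libraries, that is 101.6% and 108.9% of the wild type mean. Horizontal basal cell markers (4 genes) summed to 70.3 to 214, 91.5 to 256 and 86.4 to 201 CPM, with means in the deletion genotypes at 88.2% and 83.1% of wild type. Heterozygous replicate 4, the lowest library in mitosis genes, was the highest in these markers. Mature OSN markers (8 genes) summed to 1347 to 2395, 1454 to 2033 and 1329 to 1662 CPM, and the means were 89.3% of wild type in heterozygous and 82.1% in homozygous libraries. In both deletion genotypes 8 of 8 of these genes had log2 fold changes below 0, with medians of -0.16 and -0.29, where 49.6% and 47.2% of all tested genes were below 0, and 0 passed the adjusted test. Immature OSN markers (6 genes) summed to 1029 to 1472, 1217 to 1581 and 1200 to 1415 CPM, with means at 100.7% and 101.1% of wild type. The OSN markers that the tissue label asks for were present in every library.

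Skeletal muscle markers were higher in some libraries of both deletion genotypes. All 10 were tested, 0 passed the adjusted test, and their sums were 7.23 to 57.6 CPM in wild type, 16.8 to 1576 in heterozygous and 19.8 to 739.5 in homozygous libraries. In heterozygous against wild type libraries 10 of 10 had log2 fold changes above 0, and 7 were higher before adjustment, against 1.75% of all tested genes. In homozygous libraries these numbers were 10 of 10 and 4, against 1.81%. In the 6 libraries under 100 CPM (3 wild type, 2 heterozygous and 1 homozygous, whose spread is assumed to be that of the other groups) 39 of the 40 cell cycle genes were below 0 in heterozygous libraries, where 50.8% of all tested genes were, and 27 in the homozygous one, against 50.5%. With the muscle level as a covariate these numbers were 39, against 49.6% of all tested genes, and 28, against 47.4%.

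The remaining marker lists had 0 genes past the adjusted test. In wild type, heterozygous and homozygous libraries the means were 3357, 2912 and 2816 CPM for sustentacular cells, 381, 376 and 415 for respiratory ciliated cells (Dnai1 was not in the table), 271, 289 and 265 for immune cells, 6647, 7597 and 7576 for cartilage and bone, 226, 207 and 236 for endothelial cells, and 3971, 3767 and 3574 for fibroblasts. Of the 7 erythroid markers 2 were tested, at 11.6, 12.3 and 15.9 CPM, while Hbb-bs, Hbb-bt, Hba-a1 and Hba-a2 were listed at 0 in all libraries. Cells of several of these types divide in the mucosa of young mice, so the 40 genes cannot be assigned to one of them here.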

How the data were processed

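RNA-seq was performed on whole MOE with an NEBNext Ultra Directional kit and polyA selection. The authors deposited raw counts per gene and a table of counts divided by size factors, which was not used. The submitters' processing notes name Trimmomatic 0.36, HISAT2 2.1.0, featureCounts of Subread 1.6.2, DESeq2 1.20.0 and GRCm38 (mm10). Which annotation was used, whether counting used strand, and how multi-mapping reads were counted is not given in the sources used here.

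The raw counts of 11 libraries were fitted with edgeR 4.0.16 in R 4.3.3. Scaling was TMM, genes were filtered with filterByExpr by genotype, and the 3 genotypes shared 1 fit with quasi-likelihood tests. P-values were adjusted by Benjamini-Hochberg over all tested genes, with DESeq2 1.42.0 as an alternative. Levels are CPM, and SDs of log2 levels use a pseudocount of 0.5. The scripts were tested on simulated data. Each of the 40 genes had 30 or more counts in every library, and errors are the spread between libraries.

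The genes and lists were chosen with earlier results of these data known, and the groups by role, the overlap and motif descriptions and the library sets after values were seen. Values in every library were given for Mki67, Top2a, Cdk1, Ccnb1, Pcna, Mcm2, Ccne1, the lowest p in each comparison, and the highest, lowest and most spread gene of each group, and up to 2 genes of each further list were named per comparison. Any other gene was chosen after its values were seen. Gene positions are from GENCODE on mm10. Wild type and homozygous libraries with the same number deviated together from their group means (r = 0.34, 0.44 and 0.42). The other pairs of genotypes gave r of -0.22 to -0.60. Libraries of the same number lay in the same library set for wild type and homozygous, and in opposite sets for the other pairs of genotypes. Libraries of different numbers were not compared, so these r cannot tell a pairing from the library sets. Whether the number pairs libraries is not known, and the block was fitted as an alternative alone. The alternatives were RLE scaling, no filter, DESeq2, 2 genotypes alone, the replicate block, the library set and leaving out each library, and, chosen after seeing the data, the muscle level.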

Additional observations from a re-analysis of the deposited data

Results flagged for a closer look

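In the heterozygous and homozygous groups no value of the 40 genes or their sums stood apart by Dixon's criterion, and the wild type group, with 3 libraries, was not examined. Of 130 groups of values looked at, 5 held a library far from the others of its genotype by that criterion, and chance gives about 1 in 20. In homozygous replicate 2 the share of counts on Rn45s was 25.8% (next 0.786%) and the TMM factor was 0.756 (next 1.01). The same library had the lowest sum of mature OSN markers, 1329 CPM, with the other homozygous libraries at 1649 to 1662. Heterozygous replicate 3 had the highest sum of immature OSN markers, 1581 CPM (next 1275). Heterozygous replicate 4 had the highest sum of horizontal basal cell markers, 256 CPM (next 96.9).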

How the results depend on the processing

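The number of the 40 genes with an adjusted p under 0.05 was 0 under every alternative run. No log2 fold change of the genes with the lowest p in each comparison reversed its sign, but medians did. The mitosis median of homozygous against wild type libraries (-0.03) was 0.061 without wild type replicate 2. The replication median of homozygous against heterozygous libraries (0.10) was -0.03 without heterozygous replicate 1. The number with an unadjusted p under 0.05 moved more, and the share of all tested genes in the same fit is given in brackets. For homozygous against wild type libraries (0) it was 1 by DESeq2 (2.93%), 1 with the library set as a covariate (6.83%), 1 with the replicate block in these genotypes alone (6.31%), 3 with the muscle level as a covariate (6.47%) and 2 in libraries low in muscle markers (8.88%). It was 0 to 3 when 1 library was left out. For heterozygous against wild type (2) it was 1 without the filter (2.4%), 1 with only these genotypes (1.71%), 0 with the replicate block in either fit (1.44% and 1.76%), 4 with the library set (4.55%), 4 with the muscle level (3.43%) and 3 in libraries low in muscle markers (2.54%), and 0 to 9 when 1 library was left out. For homozygous against heterozygous (0) it was 2 with only these genotypes (0.412%), 3 with the library set (1.37%), 2 in libraries low in muscle markers (2.87%), and 0 to 2 when 1 library was left out. The cause was not tested.

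The median log2 fold change of the mitosis genes in homozygous against wild type libraries was -0.18 in libraries low in muscle markers and -0.20 to 0.061 when 1 library was left out. Other medians ranged, leaving out 1 library, from -0.32 to -0.08 (replication, homozygous), -0.39 to -0.12 and -0.32 to -0.14 (replication and mitosis, heterozygous), and -0.03 to 0.13 and 0.07 to 0.23 (homozygous against heterozygous). In heterozygous libraries the p of Ccna2 was over 0.05 in 6 of 20 alternatives (0.00777 to 0.128 over all 20) and that of Mki67 in 15 of 20 (0.0124 to 0.275), and 2 of each were the replicate block, whose numbers do not pair these genotypes (0.0593 and 0.136 over the 3 genotypes, log2 fold changes -0.35 and -0.25). Among the 40 genes the block changed no other call at p under 0.05 except that it added Uhrf1 in homozygous against wild type libraries. It did so only in the fit of these genotypes alone, which was chosen after seeing the data. Single genes of the further lists were not refitted under the alternatives. The lowest count of the 40 genes in a library was 30, and 95% intervals were up to 1.53 wide on the log2 scale.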
